A study of Mus musculus with 26 samples.

Results

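The 33 genes described here are carried by megakaryocytes and the platelets they release, and were picked by gene symbol out of the 56392 genes of the deposited table. Each of the 33 symbols was found once. They fall into 10 surface receptors, 9 granule and secreted proteins, 4 nucleotide receptors or channels, 3 enzymes of eicosanoid synthesis, 6 intracellular and cytoskeletal proteins, and 1 transcription factor. A total of 32 passed the filter on low values (FPKM of 1 or more in 5 or more libraries), and Gp1bb did not. FPKM are fragments per kilobase of gene, scaled to the library's size, so levels of different genes can be set side by side.

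Spleen RNA came from female BALB/c mice aged 8 weeks, 20 per group by the labels, in 26 libraries. Saline was given to the mice of 5 libraries (code CT). Ovalbumin (OVA), the main protein of egg white and a common model allergen, was injected into the peritoneum at 0.05 mg/day on days 1, 3 and 5 for 11 libraries (6 coded OS and 5 coded ON). A further 10 libraries (5 coded MM and 5 coded MN) had the same OVA injections and, on day 3, a mimic of miR-676-3p at 7 mg/kg into the tail vein. What separates OS from ON and MM from MN is not defined by the labels. Whether libraries came from different mice is not stated either, and p-values therefore measure only the spread between these libraries. The mature form of the microRNA that the mimic copies is shown because it is the agent of the last group, with its seed (bases 2 to 8) in capitals.
mmu-miR-676-3p (RefSeq, GRCm38.p6, chrX:100381151-100381171, + strand): cCGUCCUGagguuguugagcu

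Megakaryocytes are large polyploid cells that shed platelets into the blood. In the mouse they reside in the red pulp of the spleen as well as in the bone marrow, and the spleen also holds a pool of circulating platelets. The factors Gata1, Fli1, Runx1 and Nfe2 switch on their genes, and Gfi1b is a repressor in the same lineage. Platelets have no nucleus but carry megakaryocyte mRNA, so in RNA from whole spleen both cells can contribute to these levels.

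Recovered reads per library ran from 14224832 to 18113989, and the 33 genes took 0.177% to 0.371% of them. Of 7 genes that mark the spleen or its main cells, 6 were above 0 in every library (Tlx1, a spleen organiser, at 4.12 to 22.3 FPKM), and Nkx2-5 was at 0 in 1 library. Some libraries stand apart. CT 4 had 6.62% of its reads on mitochondrial genes, and 13 pancreas genes summed to as much as 272054 FPKM in the ON libraries and 109247 in the MM libraries, with ON 2, MM 2 and ON 3 carrying them. Values without these libraries are given beside the results that they move most.

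The most abundant members were small secreted proteins of the alpha granule. Ppbp, the precursor of a platelet chemokine (ENSMUSG00000029372, chromosome 5, 90916377 to 90917922 on a build that the table does not name), had a median of 314 FPKM over the 26 libraries and a range of 192 to 576. Pf4, platelet factor 4 (ENSMUSG00000029373, chromosome 5, 90920294 to 90921242), had a median of 179 FPKM. The other granule and secreted genes were far lower. Coagulation factor V (F5) had a median of 7.31 FPKM, von Willebrand factor (Vwf) 6.21, multimerin (Mmrn1) 5.48, the transglutaminase chain F13a1 3.77 and the TGF-beta binding protein Ltbp1 3.13. Selp, the P-selectin that moves to the platelet surface on activation, was at 1.93 FPKM and the protease inhibitor Serpine2 at 1.91.

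Among surface receptors, Gp9 (37.7 FPKM), the integrin chain Itgb3 (36.6) and the tetraspanin Cd9 (34.7) had the highest medians. Itga2b, the partner chain of Itgb3 in the fibrinogen receptor, was at 25.9 FPKM, Treml1 at 22.7, Gp5 at 19.9 and Gp1ba at 10.3. Clec1b, the receptor for podoplanin, was at 5.902 FPKM, and Gp6, the collagen receptor, at 3.79. Of the intracellular proteins, the kinase substrate Plek reached 77.9 FPKM, Tubb1, the beta-tubulin of the platelet's marginal band, 44.01, the calmodulin-binding Nrgn 35.7, the caveolar coat protein Cavin2 33.3, the G protein regulator Rgs18 19.2 and the granule GTPase Rab27b 3.54. The lipoxygenase Alox12 was at 20.3 FPKM, the cyclooxygenase Ptgs1 at 18.2 and thromboxane synthase (Tbxas1) at 4.72. The ATP-gated channel P2rx1 was at 10.2 FPKM, the ADP receptors P2ry12 and P2ry1 at 6.59 and 3.898, and the cation channel Trpc6 at 1.64. Gfi1b, a transcriptional repressor of megakaryocyte and red cell precursors, was at 27.5 FPKM. Several members are not restricted to platelets. Plek is made by leukocytes, Vwf by endothelium, F13a1, Ptgs1 and Tbxas1 by macrophages, and Gfi1b by erythroid cells.

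Gp1bb, the partner chain of Gp1ba and Gp9 in the von Willebrand factor receptor, was nearly absent. Over the 26 libraries it collected 22 reads, with 0 reads in 14 libraries and at most 3 in any, and its highest level was 0.0879 FPKM. Gp1ba and Gp9 had median read numbers per library of 451.5 and 527.5. The table places Gp1bb (ENSMUSG00000050761, chromosome 16, 18439067 to 18441153) on the same strand as Septin5, which covers 91.1% of its span, and as the predicted gene Gm49601, which covers 92.9%. Septin5 had 12 to 79 reads per library, at a median of 0.581 FPKM. Whether reads of Gp1bb were set aside as shared between overlapping genes was not tested. Clec1b shares 3.94% of its span with Clec9a on the same strand. P2ry12 lies wholly within Med12l on the opposite strand, where Med12l had a median of 1.03 FPKM, and the files do not say whether counting used strand.

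Promoter sequences of 4 members are shown because these pairs, neighbours or partners, behaved differently between libraries in the results that follow. That difference rested in part on libraries CT 4 and OS 5. Whether promoter sequence bears on it was not tested. Ppbp and Pf4 are chemokine genes side by side on chromosome 5, and Gp1ba and Gp9 are chains of a single receptor complex. Each sequence covers 250 bases before to 50 after the start in RefSeq, read 5′ to 3′ on the gene's strand. Capitals mark matches, on either strand, to a GATA motif (AGATAA or TGATAA) or an ETS motif (AGGAAG or CGGAAG).
Ppbp (GRCm38.p6, chr5:90768268-90768567, + strand): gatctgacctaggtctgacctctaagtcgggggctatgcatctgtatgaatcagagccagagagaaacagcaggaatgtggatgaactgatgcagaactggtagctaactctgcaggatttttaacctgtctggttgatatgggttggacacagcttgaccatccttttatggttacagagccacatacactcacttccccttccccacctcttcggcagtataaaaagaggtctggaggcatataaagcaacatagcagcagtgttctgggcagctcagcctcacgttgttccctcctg
Pf4 (GRCm38.p6, chr5:90772185-90772484, + strand): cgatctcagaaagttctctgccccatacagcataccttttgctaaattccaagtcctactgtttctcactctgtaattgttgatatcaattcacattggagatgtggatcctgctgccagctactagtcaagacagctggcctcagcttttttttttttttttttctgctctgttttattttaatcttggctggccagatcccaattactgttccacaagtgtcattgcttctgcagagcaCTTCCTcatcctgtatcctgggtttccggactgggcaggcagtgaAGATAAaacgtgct
Gp1ba (GRCm38.p6, chr11:70638872-70639171, + strand): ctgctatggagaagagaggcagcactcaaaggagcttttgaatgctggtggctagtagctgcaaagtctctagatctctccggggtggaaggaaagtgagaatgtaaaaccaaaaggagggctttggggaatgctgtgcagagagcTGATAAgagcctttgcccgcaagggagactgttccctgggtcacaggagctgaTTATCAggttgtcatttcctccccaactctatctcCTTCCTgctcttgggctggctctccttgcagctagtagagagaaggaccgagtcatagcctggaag
Gp9 (GRCm38.p6, chr6:87777820-87778119, + strand): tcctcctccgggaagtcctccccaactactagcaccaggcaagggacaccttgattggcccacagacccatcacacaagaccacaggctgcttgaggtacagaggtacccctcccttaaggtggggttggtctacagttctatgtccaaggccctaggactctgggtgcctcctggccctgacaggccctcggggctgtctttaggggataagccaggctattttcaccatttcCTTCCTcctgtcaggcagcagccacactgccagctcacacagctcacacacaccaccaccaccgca
In these windows Gp1ba held 2 GATA matches and 1 ETS match, Pf4 held 1 of each, Gp9 held 1 ETS match, and Ppbp held neither. Promoters were found for 29 of the 33 members. A GATA match occurred in 8 of the 29 (27.6%), against 19.0% of all 27025 promoters in the table, and an ETS match in 16 (55.2%), against 46.4%. Matches to an NF-E2 motif (TGANTCA) occurred in 4 (13.8%, against 7.93%), and to a RUNX motif (TGTGGT) in 2 (6.90%, against 16.9%), on either strand. A match is a string of letters, not a bound site.

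Under OVA the platelet genes leaned upward relative to saline, but none passed the test. A total of 29 of 32 had a fitted log2 difference above 0 and 3 lay below (Gfi1b, Clec1b and Nrgn), with a median of 0.28 against 0.0080 over all 15672 genes tested. In limma with Benjamini-Hochberg adjustment 0 of 32 passed at 0.05, where 2.17% of all genes did. An unadjusted p under 0.05 was reached by 4 members (Plek, Selp, Cd9 and Gp1ba), where 16.3% of all genes reached it. No member separated the 11 OVA libraries from the 5 saline libraries without overlap, as 0.778% of all genes did. In RNA from whole spleen, a change in the number of cells of a type and a change in RNA per cell cannot be told apart.

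Plek, a substrate of protein kinase C in platelets and leukocytes (ENSMUSG00000020120, chromosome 11, 16921206 to 17002381), had the smallest p. The FPKM of Plek were 77.7, 73.6, 58.95, 105 and 75.4 in the CT libraries and 77.9, 119, 113, 84.6 and 70.02 in the ON libraries, and those of the OS libraries ran from 99.9 to 136 with a median of 107. MM libraries stood at 72.04, 87.1, 72.9, 92.01 and 73.9, and MN libraries at 67.3, 64.6, 77.95, 70.01 and 73.7. Of the 11 OVA libraries 9 lay above the saline mean, and CT 4, the highest saline library at 105 FPKM, lay inside the OVA range. The means were 103 ± 19.3 (SD, n = 11) under OVA and 78.1 ± 16.6 (SD, n = 5) under saline, a log2 difference of 0.38 ± 0.12 (SE, limma adjusted p = 0.111). Without CT 4 the difference was 0.49 and the limma adjusted p 0.0341, without CT 3 they were 0.28 and 0.286, and in 25 of the 26 fits that left out 1 library Plek did not pass.

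Cd9, a tetraspanin of platelets and other blood cells (ENSMUSG00000030342, chromosome 6, 125437229 to 125471754), gave a like picture. The FPKM of Cd9 were 43.96, 33.1, 26.1, 32.5 and 35.95 in the CT libraries and 34.7, 51.9, 51.8, 41.4 and 34.8 in the ON libraries, and those of the OS libraries ran from 28.96 to 60.3 with a median of 50.5. With the mimic they were 33.7, 41.3, 33.4, 34.5 and 31.96 in MM and 31.5, 31.98, 36.1, 32.2 and 32.4 in MN. A single OVA library, OS 1, was below the saline mean. The OVA mean was 45.4 ± 9.67 (SD, n = 11) against 34.3 ± 6.48 (SD, n = 5), and the log2 difference was 0.38 ± 0.14 (limma adjusted p = 0.149). Without OS 1 the difference was 0.44 and the limma adjusted p 0.0444, and without CT 3 they were 0.29 and 0.337. Here too 25 of 26 such fits left the gene short of the threshold.

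For Gp1ba, the ligand-binding chain of the von Willebrand factor receptor (ENSMUSG00000050675, chromosome 11, 70529948 to 70532862), the codes overlapped widely. The FPKM of Gp1ba were 8.39, 8.93, 6.09, 14.7 and 8.804 in the CT libraries and 11.3, 14.9, 19.6, 14.6 and 11.9 in the ON libraries, and those of the OS libraries ran from 7.26 to 18.4 with a median of 11.6. In the MM libraries they were 5.903, 15.9, 9.36, 12.9 and 7.33, and in the MN libraries 8.15, 7.34, 10.4, 5.75 and 7.98. The 5 ON libraries lay above 4 of the 5 CT libraries, and CT 4 overlapped them. The OVA mean was 13.1 ± 3.57 (SD, n = 11) against 9.38 ± 3.19 under saline (SD, n = 5), and the log2 difference was 0.46 ± 0.20 (limma adjusted p = 0.252). Without CT 4 it was 0.62 (limma adjusted p = 0.103), and without CT 3 it was 0.33.

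Selp (ENSMUSG00000026580, chromosome 1, 163942833 to 163977595) was low throughout, at 56 to 267 reads per library. The FPKM of Selp were 1.101, 1.996, 0.722, 1.52 and 1.89 in the CT libraries and 1.97, 2.85, 3.57, 3.15 and 2.12 in the ON libraries, and those of the OS libraries ran from 1.18 to 3.39 with a median of 2.07. MM libraries stood at 1.13, 3.11, 1.07, 2.21 and 1.18, and MN libraries at 1.38, 1.301, 2.02, 1.69 and 0.964. The groups overlapped, with 10 of 11 OVA libraries above the saline mean. Means were 2.41 ± 0.748 (SD, n = 11) and 1.45 ± 0.535 (SD, n = 5), and the log2 difference was 0.49 ± 0.17 (limma adjusted p = 0.143). With voom on the recovered reads, which does not add 1 to the FPKM, it was 0.85 ± 0.28 (limma adjusted p = 0.111). Gp5, the remaining chain of the Gp1ba complex, differed by 0.37 ± 0.19 (limma adjusted p = 0.336).

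By role, log2 differences between OVA and saline ran from -0.04 (Clec1b) to 0.46 (Gp1ba) in the 9 tested surface receptors, 8 of them above 0. All 9 granule and secreted genes lay above 0, from 0.07 (Ltbp1) to 0.49 (Selp). The 4 nucleotide receptor and channel genes lay between 0.07 (P2ry12) and 0.28 (P2ry1), and the 3 eicosanoid enzymes between 0.12 (Ptgs1) and 0.29 (Alox12). Of the 6 intracellular genes 5 were above 0, with Tubb1 at 0.40 and Nrgn at -0.04. Gfi1b was at -0.15 ± 0.24. Pf4 differed by 0.11 ± 0.22, less than its SE.

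Single saline libraries moved these values. Over the 32 genes, the mean per library relative to the saline mean was 0.45 in CT 4 and -0.42 in CT 3 on the log2 scale, wider than the distance from saline to the mean of either OVA code (0.19 for OS and 0.29 for ON). Without CT 4, the median log2 difference was 0.38, with 20 members at an unadjusted p under 0.05 (19.6% of all genes) and 1 member, Plek, past the limma threshold (2.36% of all genes). Without CT 3, the median was 0.15 and 1 member was at an unadjusted p under 0.05, where 15.5% of all genes were. Without ON 2, MM 2 and ON 3 the median was 0.17. With weights that give less to outlying libraries, 8 members passed, Plek, Cd9, Gp1ba and Gp5 among them, but so did 9.16% of all genes. With voom on the recovered reads 1 member (Plek) passed, and 1.83% of all genes.

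Marker lists of other cells went in different directions, and none of their genes passed in limma. In OVA against saline, 13 of 14 neutrophil markers lay above 0 (median log2 difference 0.54), and their summed FPKM spanned 1554 to 8421 in CT, 2242 to 7522 in OS and 2565 to 6124 in ON. Of 14 erythroid markers 11 lay below 0 (median -0.12), with sums of 41667 to 77781 in CT, 23132 to 64636 in OS and 15537 to 44431 in ON. Of 9 tested endothelial markers 6 lay above 0 (median 0.06). None of the defining markers of these lists was at 0 in any library. Their part in the result was not tested.

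**Figure D1:**
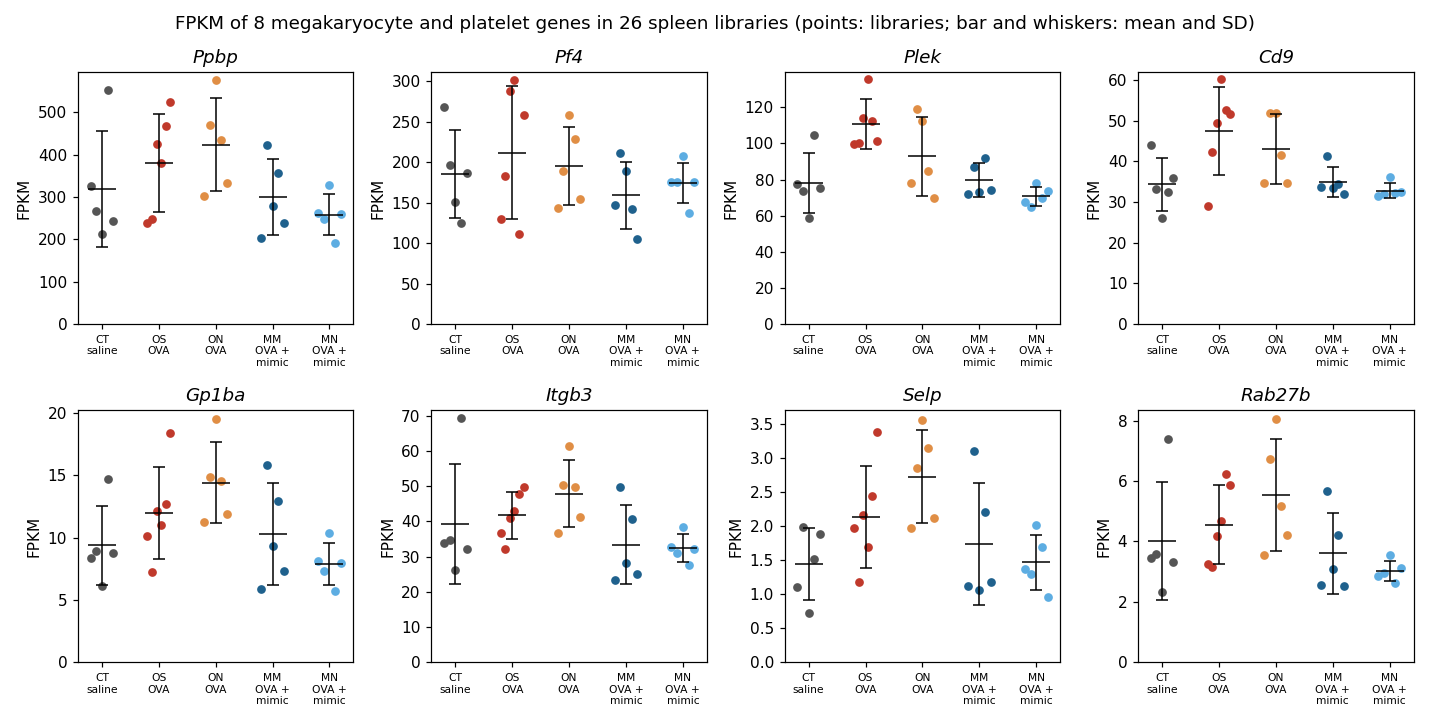
FPKM (vertical axis, linear from 0) of 8 members in the 26 libraries, by code on the horizontal axis, with points for libraries and a bar and whiskers for mean and SD. Plek ran from 99.9 to 136 FPKM in the OS libraries and from 64.6 to 78.0 in the MN libraries, and CT 4 stands above the other saline libraries for Itgb3 at 69.2 FPKM.

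With the mimic added to OVA, all 32 tested members lay below their OVA level, with a median log2 difference of -0.38 against 0.0027 over all genes tested, and again none passed the test. In limma 0 of 32 passed after adjustment, as did 0% of all genes, and 0 passed with voom. With no adjustment, p was under 0.05 for 20 of 32 members and for 10.1% of all genes (4.74% of all genes in the downward direction). The members vary together between libraries, so the 32 directions and 20 p-values are not independent of one another. The OVA libraries serve both here and in the comparison with saline, so a value that was high in OVA by chance enters both.

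Plek again had the smallest p. All 10 mimic libraries (64.6 to 92.0 FPKM) lay below the OVA mean of 103 ± 19.3 (SD, n = 11), and their own mean was 75.2 ± 8.51 (SD, n = 10). The log2 difference was -0.41 ± 0.10 (limma adjusted p = 0.18). The ranges still overlapped through ON 1 and ON 5, at 77.9 and 70.0 FPKM, and ON 4 at 84.6. Cd9 was below the OVA mean in 10 of 10 mimic libraries, at 33.9 ± 2.95 against 45.4 ± 9.67 FPKM, a log2 difference of -0.38 ± 0.11 (limma adjusted p = 0.259). Gp1ba was below it in 9 of 10, with MM 2 at 15.9 FPKM the exception, and differed by -0.51 ± 0.16 (limma adjusted p = 0.308).

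Itgb3, the beta chain of the fibrinogen receptor (ENSMUSG00000020689, chromosome 11, 104498826 to 104561302), followed. The FPKM of Itgb3 were 33.9, 34.7, 26.2, 69.2 and 32.1 in the CT libraries and 36.6, 50.4, 61.4, 49.7 and 41.2 in the ON libraries, and those of the OS libraries ran from 32.2 to 49.8 with a median of 41.9. With the mimic they were 23.4, 49.6, 28.2, 40.6 and 25.1 in MM and 32.8, 31.1, 38.5, 27.6 and 32.03 in MN. MM 2 was the only mimic library above the OVA mean of 44.5 ± 8.301 FPKM (SD, n = 11). The mimic mean was 32.9 ± 7.99 (SD, n = 10), which differ on the log2 scale by -0.44 ± 0.15 (limma adjusted p = 0.319). The granule GTPase Rab27b was at 3.31 ± 0.969 FPKM with the mimic against 5.003 ± 1.57, with 9 of 10 libraries below the OVA mean, and differed by -0.47 ± 0.16 (limma adjusted p = 0.315).

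By role, the 9 surface receptors ran from -0.51 (Gp1ba) to -0.25 (Treml1). The 9 granule and secreted genes ran from -0.55 (F13a1) to -0.16 (Ltbp1), with Ppbp at -0.51 ± 0.18, Vwf at -0.44 ± 0.17 and Pf4 at -0.24 ± 0.18. The nucleotide receptor and channel genes lay between -0.36 (P2ry1) and -0.18 (P2ry12), and the eicosanoid enzymes between -0.39 (Alox12) and -0.08 (Ptgs1). Intracellular genes ran from -0.47 (Rab27b) to -0.07 (Nrgn), and Gfi1b was at -0.20 ± 0.19. Code by code, 32 of 32 members were lower in MM than in OS, in MM than in ON and in MN than in OS, and 31 of 32 were lower in MN than in ON, where Nrgn lay above by 0.09 ± 0.30.

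The library mean over the 32 genes overlapped between the treatments. Relative to saline on the log2 scale, OS ran from -0.11 to 0.51 with a median of 0.24, and the ON libraries were at -0.04, 0.36, 0.66, 0.38 and 0.11. The MM libraries were at -0.41, 0.42, -0.14, 0.09 and -0.31, and the MN libraries at -0.17, -0.17, 0.07, -0.26 and -0.11. MM 2, one of the libraries with pancreas RNA, was the highest of the mimic libraries. Without ON 2, MM 2 and ON 3 the median over members was -0.33 with 32 of 32 below 0. Removal of each library in turn left it between -0.42 and -0.34, with 31 or 32 members below 0 and 16 to 24 at an unadjusted p under 0.05, where 7.06% to 14.5% of all genes were.

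All 14 neutrophil markers also lay below 0 with the mimic, at a median of -0.78, more than the platelet genes. Their summed FPKM spanned 945 to 5027 in MM and 1188 to 8388 in MN. The mimic codes differed, with a median sum of 1186 in MM and 3860 in MN, against 5000 in OS and 3955 in ON. Of 14 erythroid markers 9 lay below 0 (median -0.19), and of 9 endothelial markers 7 did (median -0.03). Their part in the result was not tested. F13a1, which is also made by monocytes and macrophages, varied with the neutrophil markers between libraries of the same code (r = 0.87, 26 libraries). Its r with the monocyte and macrophage markers was 0.37. Selp had an r of 0.66 with the neutrophil markers, and Ptgs1 0.68 with those of monocytes and macrophages. Gfi1b varied with the erythroid markers (r = 0.90).

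**Figure D2:**
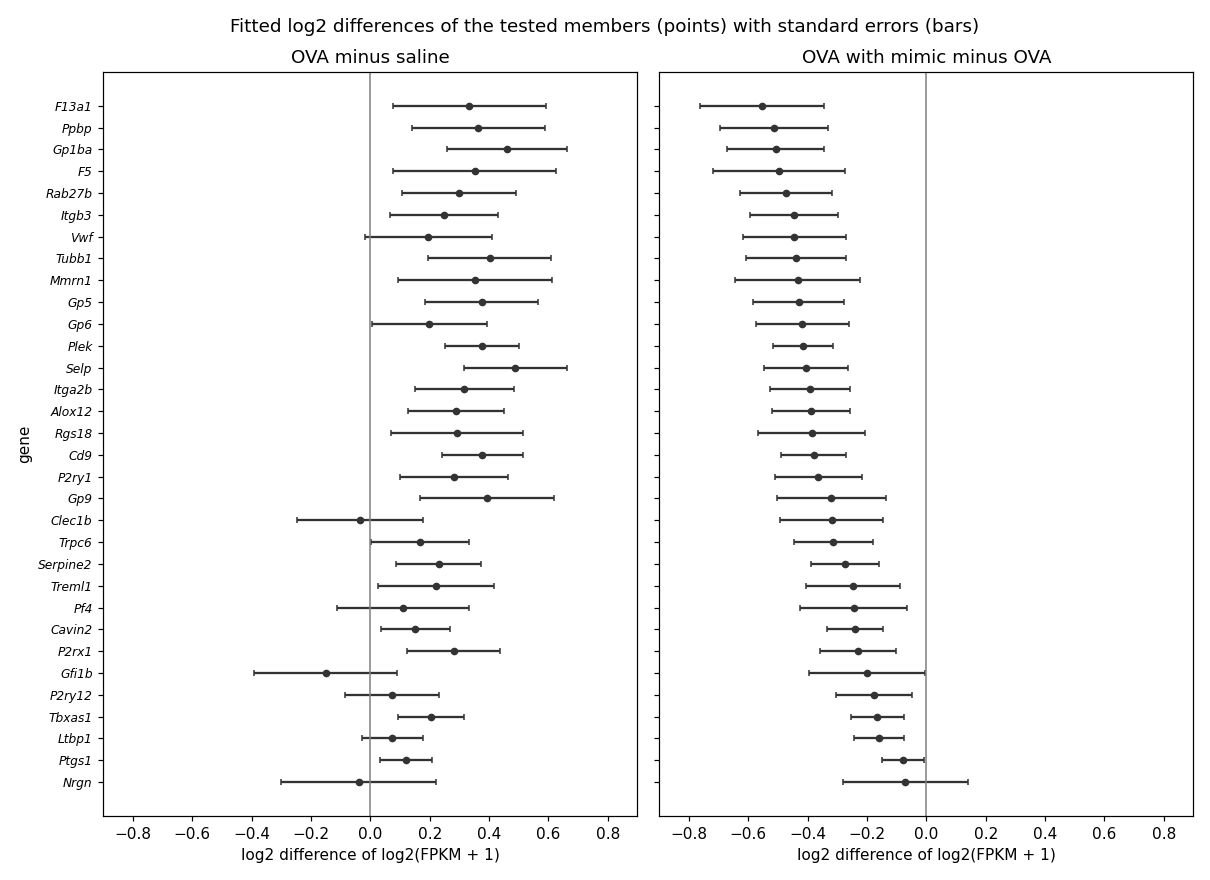
Fitted log2 differences of the 32 tested members (points) with standard errors (bars), for OVA minus saline on the left and OVA with mimic minus OVA on the right. The left panel has 29 points above 0 and the right panel all 32 below 0, and both panels use the same OVA libraries.

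Between OVA with mimic and saline the members' median lay near 0, on a side that depended on CT 4 and on the weighting. The median log2 difference was -0.09, against 0.0066 over all genes tested, with 27 of 32 below 0, 0 passed in limma (0% of all genes did), and 0 had p under 0.05 before adjustment, where 6.72% of all genes did. Clec1b had the smallest p, at -0.36 ± 0.22 (limma adjusted p = 0.733), followed by Gfi1b at -0.35 ± 0.24, Vwf at -0.25 ± 0.22, Gp6 at -0.22 ± 0.20 and Itgb3 at -0.20 ± 0.19. CT 4 was the highest saline library for each of these 5 genes, and without it the median over members was 0.04, with Vwf at 0.0091 and Itgb3 at 0.03. Scaling to total recovered reads put 12 members above 0 and 20 below, voom 13 and 19, and library weights 20 and 12, with a median of 0.03.

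OS and ON, which share the stated treatment, were compared as codes only. In limma 0 of 32 passed, where 0.185% of all genes did, 0 had p under 0.05 before adjustment, where 10.6% of all genes did, and 9 lay above 0 and 23 below (median -0.11, against 0.0115 over all genes). Plek was higher in OS, at 111 ± 13.9 (SD, n = 6) against 92.9 ± 21.8 FPKM (SD, n = 5), which differ on the log2 scale by 0.27 ± 0.14 (limma adjusted p = 0.505), with 6 of 6 OS libraries above the ON mean. Tubb1 lay the other way at -0.39 ± 0.23 (limma adjusted p = 0.579), as did P2rx1 at -0.27 ± 0.18, Selp at -0.26 ± 0.19 and Tbxas1 at -0.17 ± 0.12. Without ON 2, MM 2 and ON 3 the split became 20 above and 12 below, with a median of 0.04, and without ON 3 alone the median was -0.02. In MM against MN, 0 of 32 passed in limma, where 0.172% of all genes did, 0 had p under 0.05 before adjustment, where 7.25% of all genes did, and 23 lay above 0 and 9 below (median 0.10, against -0.0036 over all genes). Ltbp1 had the smallest p, at 0.16 ± 0.12 (limma adjusted p = 0.869), then F13a1 at -0.37 ± 0.30, Gp1ba at 0.28 ± 0.24, Plek at 0.16 ± 0.15 and Cavin2 at 0.15 ± 0.14. Without MM 2 the median was -0.03. All 14 neutrophil markers were lower in MM than in MN (median log2 difference -0.95).

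Of the other genes of the pathway that are given here, 1 passed. Of 16 tested regulators of megakaryocyte growth and gene expression, 0 rose under OVA and 0 fell, where 2.17% of all genes did either. An unadjusted p under 0.05 was reached by 2 of these 16, where 16.3% of all genes reached it. Of 38 other platelet genes 1 rose and 0 fell, where 0.785% of all genes rose.

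Thbs1, thrombospondin, an adhesive protein of the alpha granule that many other cells also make (ENSMUSG00000040152), rose. The FPKM of Thbs1 were 21.4, 22.4, 15.7, 25.6 and 26.7 in the CT libraries and 31.5, 53.4, 53.5, 35.6 and 31.95 in the ON libraries, and those of the OS libraries ran from 36.5 to 60.1 with a median of 46.6. In the MM libraries they were 25.7, 50.4, 22.7, 37.2 and 27.4, and in the MN libraries 23.1, 20.1, 28.5, 17.03 and 19.02. All 11 OVA libraries (31.5 to 60.1 FPKM) were above all saline libraries (15.7 to 26.7). In either direction 0.778% of all genes separated these groups, and Thbs1 is given because it passed the test. Means were 44.0 ± 9.92 (SD, n = 11) and 22.4 ± 4.31 (SD, n = 5), and the log2 difference was 0.93 ± 0.18 (limma adjusted p = 0.00667). With the mimic against OVA it did not pass, at -0.71 ± 0.14 (limma adjusted p = 0.137), with 9 of 10 mimic libraries below the OVA mean. The exception was MM 2 at 50.4 FPKM. MM 2 and the highest ON libraries, ON 2 at 53.4 and ON 3 at 53.5 FPKM, are those with pancreas RNA.

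None of these 16 regulators passed in limma, where 2.17% of all genes did in OVA against saline. In OVA against saline Fli1 was at -0.27 ± 0.12 (limma adjusted p = 0.238), Runx1 at 0.15 ± 0.07 (limma adjusted p = 0.240), and Lmo2 at -0.30 ± 0.15 (limma adjusted p = 0.329). The remaining regulators, Gata1, Nfe2, Tal1 and Zfpm1 among them, had limma adjusted p from 0.345 to 0.994. The median over the 16 was 0.06, and 0.12 over the 38 platelet genes. Vps33b, a sorting protein of alpha granule formation, was at 0.22 ± 0.06 (limma adjusted p = 0.0599) and the adhesion receptor Pear1 at 0.29 ± 0.11 (limma adjusted p = 0.163). In OVA with mimic against OVA, Itga6, an integrin chain for laminin, was at -0.33 ± 0.10 and Angpt1, an angiopoietin stored in platelets, at -0.33 ± 0.11. In that comparison 12 of 16 regulators and 28 of 38 platelet genes lay below 0, with medians of -0.10 in both lists.

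**Figure D3:**
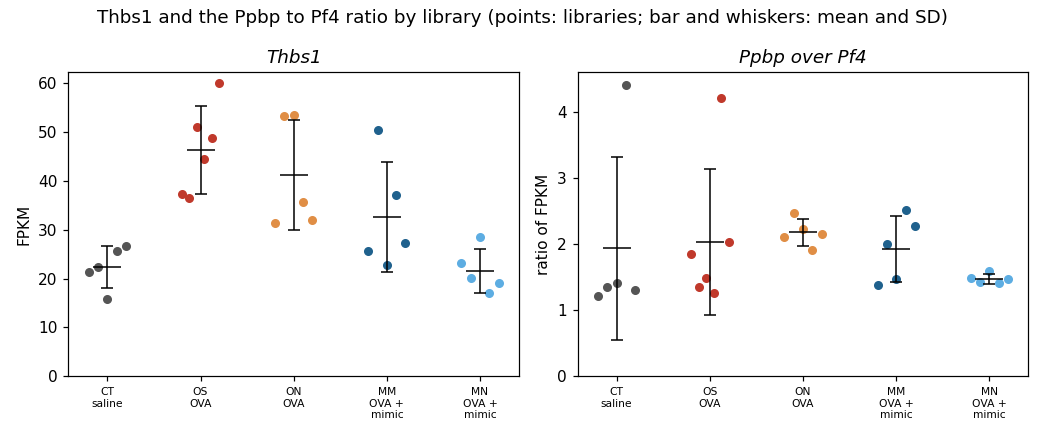
FPKM of Thbs1 and the ratio of Ppbp to Pf4 FPKM (vertical axes, linear from 0) by code, with points for libraries and a bar and whiskers for mean and SD. For Thbs1 all OVA libraries lie above the saline libraries, and the ratio stands apart in CT 4 at 4.41 and OS 5 at 4.21.

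Between libraries of the same code most members rose and fell together. After the mean of each code was subtracted from log2(FPKM + 1), Pearson's r over the 26 libraries had a median of 0.60 across the 496 pairs of members, and 315 pairs were above 0.5. The highest was Itgb3 with Vwf, at 0.97. Alox12 was closest to the mean of the other members (r = 0.98), followed by Ppbp (0.95), Gp1ba (0.94), Rab27b, Gp6 and Itgb3 (0.93 each). At the other end were Nrgn (0.11), Gp9 (0.27), Pf4 (0.39) and Gfi1b (0.45). Without CT 4 the median over pairs was 0.61, with Pf4 at 0.59, Gp9 at 0.51, Nrgn at 0.18 and Gfi1b at 0.30, and without ON 2, MM 2 and ON 3 the median was 0.54. The values of r share their libraries and are given as a description.

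Pf4, Gp9 and Nrgn varied with one another, and Gfi1b did not join them (r from -0.03 to 0.01). Pf4 varied with Gp9 (r = 0.95), Itga2b (0.88), Treml1 (0.88) and Nrgn (0.83), and Itga2b with Treml1 (0.94). Partners in a complex, or neighbours, fell on different sides. Pf4 and Ppbp had an r of 0.34, Gp1ba and Gp9 0.22, and Itga2b and Itgb3 0.50, whereas Gp1ba and Gp5 reached 0.88. The ratio of Ppbp to Pf4 FPKM had a median of 1.54 over the 26 libraries and was 4.41 in CT 4 and 4.21 in OS 5, above the 2.52 of the next library. The ratio of Gp9 to Gp1ba was lowest in the same libraries, at 1.41 and 1.73, against 2.47 to 6.56 elsewhere. The separation of partners rested in part on these libraries. Without CT 4 and OS 5 the r of Pf4 and Ppbp was 0.81, that of Gp1ba and Gp9 0.62 and that of Itga2b and Itgb3 0.86, while Pf4 and Gp9 stayed at 0.94.

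**Figure D4:**
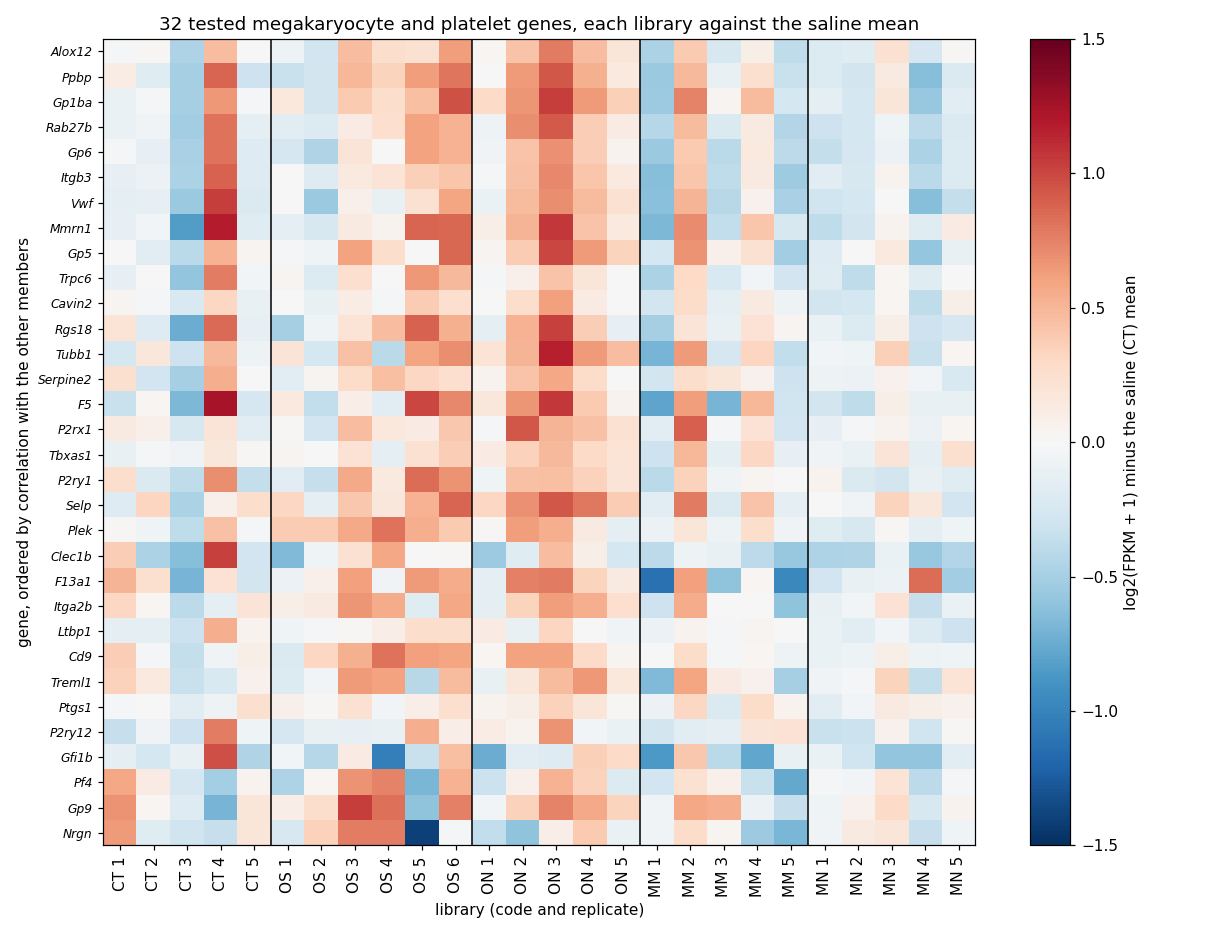
Each of the 32 tested members (rows, ordered by correlation with the other members) in each library (columns, by code), as log2(FPKM + 1) minus the saline mean in colour. CT 4 is red for 25 rows but blue for Pf4, Gp9 and Nrgn at the bottom, and OS 5 is blue for these 3 as well.

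Across all genes, libraries also differed in their trends with base composition and gene length. How closely these trends follow the ratios above was not tested. For 14929 tested genes with a GENCODE M21 transcript, the rank correlation of transcript GC content with a library's deviation from its code mean was lowest in OS 5 (rho = -0.58) and CT 4 (rho = -0.44), next MM 5 at -0.43, and highest in CT 3 (rho = 0.41). In MM 5 the ratio of Ppbp to Pf4 was 2.27 and that of Gp9 to Gp1ba 3.61, apart from those of OS 5 and CT 4. The rank correlation with gene length was highest in MM 4 (rho = 0.26), whose ratio of Ppbp to Pf4 was 2.52. It was 0.25 in OS 5 and 0.22 in CT 4. The group around Pf4 is short or rich in GC. Gp9 has 58.3% GC and a length of 881 bases in the table, Nrgn 58.6% and 1453, Treml1 56.3% and 1402, Itga2b 58.2% and 5454, and Pf4 50% and 721. Ppbp, also short at 1083 bases, has 42.4% GC, Rgs18 33.4% and Rab27b 37.9%. These traits are not particular to the group. Gp5, with 59.3% GC, and Vwf, with 56.5%, had an r of 0.89 and 0.91 with the other members. Tubb1, at 1406 bases and 54.6% GC, had 0.83, and Gfi1b, with 57.5% GC, had 0.45.

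Removal of each library's smooth trend with GC content and length brought some of these genes back to the rest. Itga2b went from an r of 0.66 with the other members to 0.93, Treml1 from 0.60 to 0.85, Gp9 from 0.27 to 0.63 and Nrgn from 0.11 to 0.40. The r of Itga2b and Itgb3 was then 0.83 and that of Gp1ba and Gp9 0.48. Pf4 did not shift, with 0.39 before and 0.41 after, nor did its r with Ppbp, at 0.38, and with Gp9 it was 0.91. Over all pairs the median r was 0.63. Other members moved away from the rest, among them Serpine2 (0.81 to 0.66), Clec1b (0.71 to 0.64), F13a1 (0.68 to 0.61) and Plek (0.71 to 0.65). In OVA against saline the same correction left 30 of 32 members above 0 (median 0.25). Of these only Cd9 passed, at a limma adjusted p of 0.0489, where 3.26% of all genes passed. In OVA with mimic against OVA 32 of 32 lay below 0 (median -0.36), with 0 passing, as did 0% of all genes. This correction was chosen after the data were seen.

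**Figure D5:**
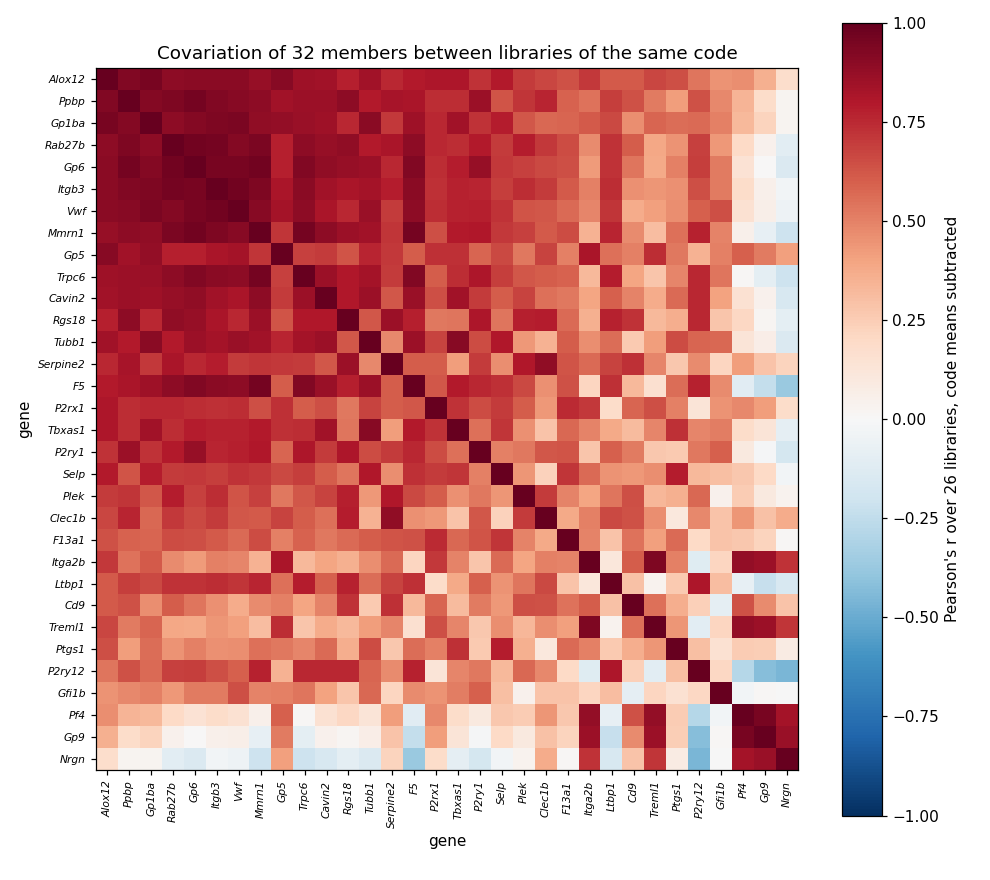
Pearson's r between each pair of the 32 tested members over 26 libraries, after subtraction of code means, in colour. Rows and columns run from Alox12 (r of 0.98 with the other members) to Nrgn (0.11), and Pf4, Gp9 and Nrgn form a block at the lower right with r of 0.83 to 0.95.

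Outside the set, the 10 protein-coding genes that followed the mean of the members most closely over the 26 libraries included Slc6a4 (r = 0.96), Kcnj5 (0.93), Gnaz (0.91), Fbxl2 (0.90), F2rl2 (0.88), Adgrg1, Layn and Irag1 (0.87 each) and Pls1 (0.86). Slc6a4 encodes the transporter that takes serotonin up into platelets, Gnaz a G protein subunit, and F2rl2 a thrombin receptor. The log2 differences of Slc6a4 were 0.24 in OVA against saline and -0.33 in OVA with mimic against OVA, and those of F2rl2 0.47 and -0.54.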

How the data were processed

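RNA-seq of mouse spleen was deposited as 1 table of FPKM for 56392 genes in 26 libraries. Libraries were poly(A) selected, per the labels' protocols. Per the submitters' processing notes, the authors' FPKM came from a workflow whose tools include HISAT2 2.0.5, featureCounts 1.5.0-p3 and StringTie 1.3.3b, then edgeR 3.24.3, CASAVA and DESeq2 1.20.0, without stated roles. The build and strand setting are not given in the sources used here. FPKM times gene length were whole multiples of 1 step for 100% of values (tolerance 0.05), which gave reads per gene; precision from these covers counting error only.

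The 15672 genes with FPKM of 1 or more in 5 or more libraries were fitted as log2(FPKM + 1) with limma 3.58.1 in R 4.3.3, with a variance trend and 1 mean per code. Benjamini-Hochberg adjustment ran over all genes of each comparison (threshold 0.05, 5 comparisons). OVA is the average of OS and ON, the mimic group that of MM and MN. Differences understate the change of low genes. The fit was tested on simulated data. Members past the threshold and the 5 with the smallest p are given per comparison, and up to 3 genes per pathway list. A gene of the regulator list is not reported here. The members and lists were chosen with earlier results of these data known. Same-numbered libraries were not paired by the labels. GC content came from the longest GENCODE M21 transcript, with splines of 5 degrees of freedom. Alternatives were another pseudocount, no filter, 2 scalings, voom, other designs, library weights and removal of libraries.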

Additional observations from a re-analysis of the deposited data

Results flagged for a closer look

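Dixon's criterion was applied within each of the 5 codes to the FPKM of the 32 tested members and to the log2 mean over members. Of these 165 sets 14 held a library set apart from the rest, or 8.48%, each on the high side. Chance gives about 1 in 20 for independent sets of normally distributed values. Members vary together, so a single library can count many times and the shares cannot be compared as a test. CT 4 accounted for 8 of them. Its FPKM were 69.2 for Itgb3, 62.1 for Gfi1b, 18.0 for F5, 14.9 for Vwf, 13.2 for Mmrn1, 12.6 for P2ry12, 7.85 for Gp6 and 7.40 for Rab27b, each the highest of the 5 saline libraries. The ADP receptor P2ry12 was also set apart in OS 5 at 10.7 FPKM and in ON 3 at 11.8. Cd9 stood above its code in MM 2 at 41.3 FPKM and in MN 3 at 36.1, and Clec1b in MN 3 at 6.47. F13a1 stood at 7.23 FPKM in MN 4, the mimic library with the highest summed neutrophil markers.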

How the results depend on the processing

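Members passing in OVA against saline numbered 0 with the reported settings, 1 with voom, 8 with library weights, 1 with the GC and length trend removed, and 0 to 1 when each library was left out (Plek without CT 4, Cd9 without OS 1). In the other 4 comparisons the number was 0 under every alternative run. The median over members kept its sign in OVA against saline (0.15 to 0.38 with a library left out) and in OVA with mimic against OVA (-0.42 to -0.34). In OVA with mimic against saline the median over members turned from -0.09 to 0.03 with library weights and 0.04 without CT 4. There, with a library left out, Itgb3 lay between -0.316 (without CT 3) and 0.0252 (without CT 4). The sign also turned there for Clec1b with library weights (log2 difference 0.0107) and for Vwf without CT 4 (0.0091); the cause was not tested. Plek passed in OVA against saline with voom (limma adjusted p = 0.0356). The numbers of the replicates do not pair the libraries: same-numbered libraries correlated at -0.39 to 0.36, and 5 of 26 were closest to a library of their own number. With the replicate block 0 members passed in any comparison, the medians were 0.25 in OVA against saline and -0.35 in OVA with mimic against OVA, and genes passing in OVA against saline numbered 184, against 340 without it, 1435 with library weights and 486 with the trend removed.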
